A study of Mus musculus with 6 samples.

Results

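Integrins are the main receptors through which cells hold on to their basement membrane, and the subunits described here are 10 genes chosen by name: Itga2, Itga3, Itga5, Itga6, Itga7, Itgav, Itgb1, Itgb3, Itgb4 and Itgb5. All 10 were measured, by 24 probe sets annotated to a single one of these symbols, among 22626 tested probe sets and 12393 genes on the array. A probe set is a group of short probes for one transcript, and its signal is given here as the log2 of the deposited intensity. RNA came from lenses of newborn mice (postnatal day 0) of 2 groups, Le-AP-2alpha conditional mutants of the transcription factor gene Tfap2a (Tcfap2a in the labels) and wild-type littermates, with 3 arrays per group and no treatment. The question of the series, per its title, is what AP-2alpha does within the lens itself, including for the lens epithelial cell phenotype. The labels give no strain, Cre driver or alleles, and leave unsaid how many animals went into a sample. As background, the Le transgene expresses Cre from a Pax6 element in the lens placode and the surface ectoderm, so that corneal and eyelid epithelium can be targeted along with the lens. P-values here set the difference between the groups against the spread between these samples, which may be partly technical.

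An integrin is a pair of 1 alpha and 1 beta subunit, and the pairing sets the ligand. The alpha subunits Itga3, Itga6 and Itga7 pair with Itgb1 into receptors for laminins, the cross-shaped proteins of basement membranes, and Itga6 also pairs with Itgb4 in the hemidesmosomes of stratified epithelia. Itga5 with Itgb1 is the classical fibronectin receptor, Itgav with Itgb1, Itgb3 or Itgb5 binds vitronectin, fibronectin and other proteins through their RGD motif, and Itga2 with Itgb1 binds collagens and some laminins. In the lens, these receptors link the epithelium and the fibre tips to the capsule, the thick basement membrane that encloses the organ.

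The members were first read against the promoter sequences of RefSeq (GRCm38.p6), because AP-2 proteins bind GC-rich sites of the form GCCNNNGGC and the close variant GCCNNNGGG. Both forms were searched on both strands in the 250 bases before each gene's start, where the variant reads CCCNNNGGC on the other strand. A window was at hand for 6 members, Itga2, Itga3, Itga5, Itgav, Itgb1 and Itgb5, and only the window of Itga2 held a match. Over all genes with a window, 34.5% held at least 1 match of either form and 15.4% held GCCNNNGGC. The stretch of Itga2 is shown because it carries the matches, which are in capitals, and the 100 bases before the starts of Itgb5 and Itga3 are shown because these genes had the largest differences between the groups. For Itga3, the start listed first of 2 was taken. Each is written 5′ to 3′ along the gene. Neither form stood anywhere in the 250 bases before Itgb5 or in either window of Itga3, which says only that these letters are not there.
Itga2, chr13:114932203-114932298, minus strand: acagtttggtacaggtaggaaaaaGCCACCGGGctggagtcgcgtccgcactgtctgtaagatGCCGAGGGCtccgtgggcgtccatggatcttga
Itgb5, chr16:33829565-33829664, plus strand: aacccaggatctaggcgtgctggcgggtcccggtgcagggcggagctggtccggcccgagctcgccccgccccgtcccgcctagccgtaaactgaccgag
Itga3, chr11:95076715-95076814, minus strand: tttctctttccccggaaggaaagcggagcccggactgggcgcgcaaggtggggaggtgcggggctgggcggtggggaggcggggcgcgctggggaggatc

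Some values of the whole series bear on what follows. Wild-type replicate 1 was the array least like the rest: its Pearson r with any other array, over all probe sets, was 0.926 to 0.945, where pairs of the remaining 5 arrays reached 0.974 to 0.985. Tfap2a signal was not lower in the mutants, at 9.68 ± 0.13 (log2, SD, n = 3) against 9.06 ± 0.63 on its brightest probe set. Its other probe sets differed by 0.36 ± 0.36 and 1.57 ± 0.49 (SE), mutant minus wild type. As the deleted part of the gene is not named in the labels, this does not check the genotype. The lens identity of the samples showed in the crystallin markers Cryaa, Cryab, Cryba1, Crybb1 and Crygs, at mean log2 levels of 13.4 to 13.9. The median probe set was at 5.26. Of 10 measured lens markers, 9 were brighter than the median probe set. That count alone does not single out lens, as 6867 of 12393 genes, 8 of 10 endothelial and 6 of 8 retinal markers were too. Foxe3, a transcription factor of the lens epithelium, was the dim lens marker. The 3′ minus 5′ signal of the Actb and Gapdh control probe sets, a measure of how much of each transcript's length was amplified, ran from 0.98 in wild-type replicate 2 to 1.77 in mutant replicate 2, with 1.68 in wild-type replicate 3 and at most 1.43 in the other 3 arrays.

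**Figure D1:**
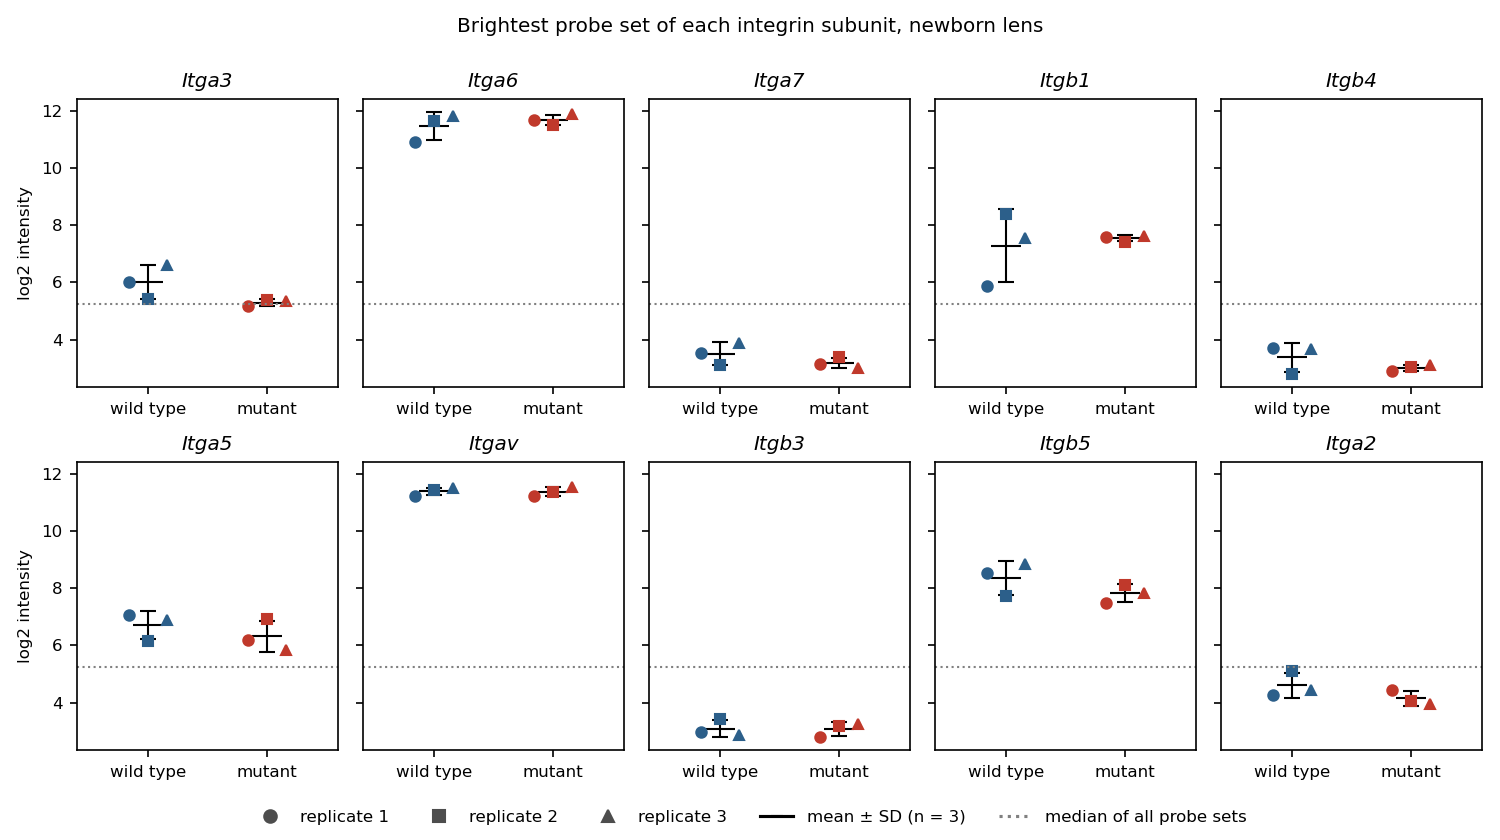
Log2 intensity of the brightest probe set of each of the 10 integrin subunits in the 3 wild-type (blue) and 3 mutant (red) lens arrays, with mean ± SD and the median level of all probe sets as a dotted line. Itga6 and Itgav lie far above the dotted line with overlapping groups, Itga7, Itgb3, Itgb4 and Itga2 lie below it on every array, and Itgb1 spreads most within the wild types.

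No integrin subunit passed the test for a difference between mutant and wild-type lenses. limma called 0 of the 24 member probe sets at an adjusted p under 0.05, with an adjusted p of 0.999 for each, and it called 0% of all probe sets. At an unadjusted p under 0.05 there was 1 member probe set, of Itgb5, lower in mutants, where 1.58% of all probe sets were lower at that level, and 0 were higher, where 1.7% of all probe sets were. The difference was below 0 for 19 of the 24 probe sets and for 8 of the 10 genes by their brightest probe set, against 53.6% of all probe sets and 52.2% of all genes. Probe sets of one gene share a target and are not independent. The median difference over the 10 genes was -0.35, against -0.01 over all genes. In lens extracts of this kind, fewer cells of a type and less RNA per cell cannot be told apart.

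Of the 24 member probe sets, 11 were brighter than the median probe set, whose mean log2 level was 5.26. These covered 6 genes: Itga3, Itga5, Itga6, Itgav, Itgb1 and Itgb5. The other 13 are called dim below, and for Itga2, Itga7, Itgb3 and Itgb4 the array gave a dim signal alone. Of the 9 subunit pairs named above as receptors for laminin, fibronectin, other RGD ligands or collagen, 5 had both subunits above the median level: Itga3 with Itgb1, Itga6 with Itgb1, Itga5 with Itgb1, Itgav with Itgb1 and Itgav with Itgb5. The remaining 4 include Itga6 with Itgb4, the hemidesmosomal pair, and Itgav with Itgb3. A dim signal on an array does not show that a transcript is absent.

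**Figure D2:**
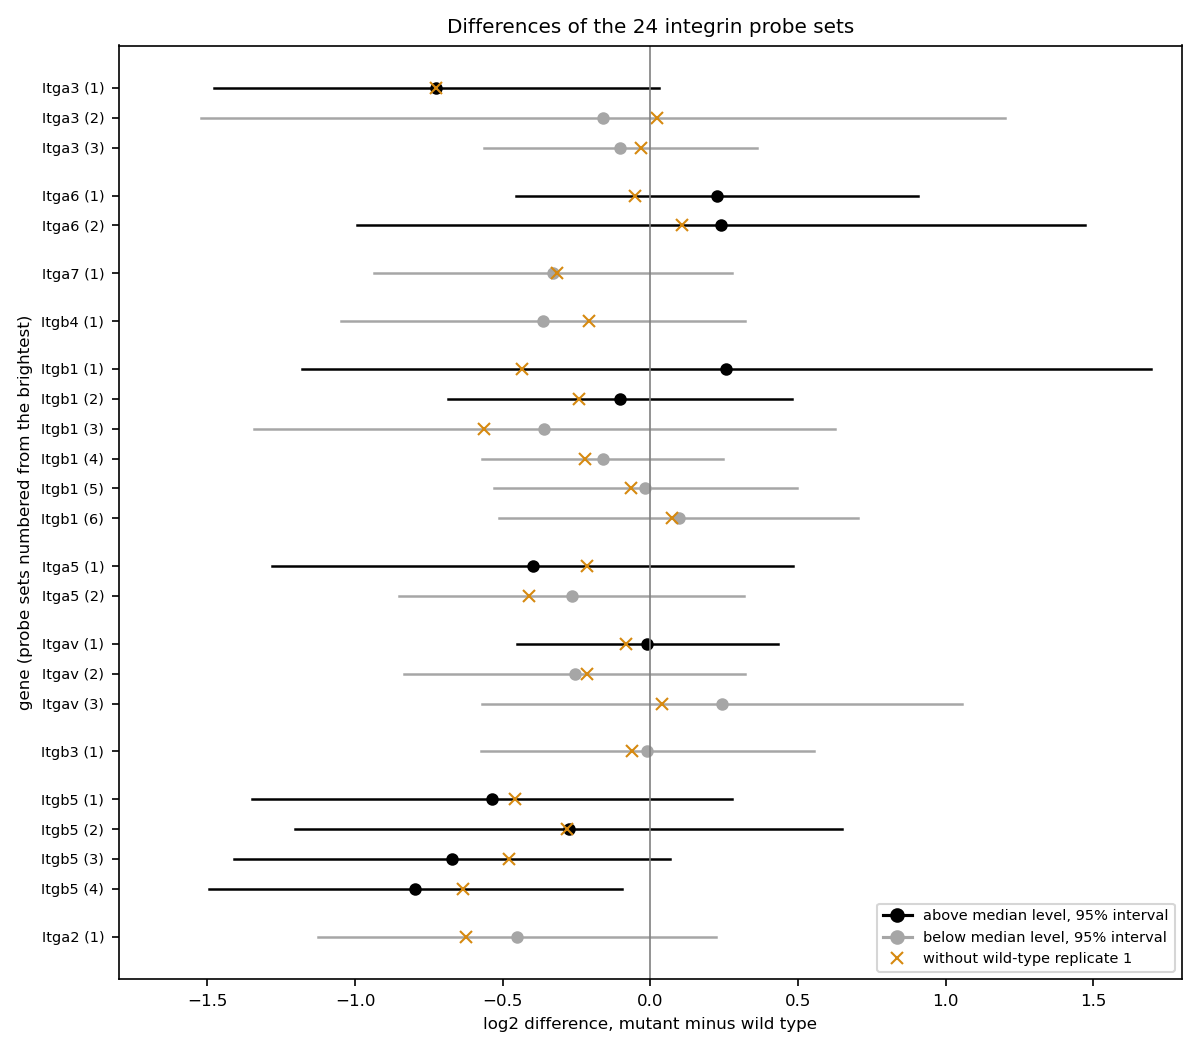
Log2 difference, mutant minus wild type, for the 24 integrin probe sets with 95% intervals of the limma fit, black for probe sets above the median level and grey for dim ones; crosses give the difference without wild-type replicate 1. The interval of 1 Itgb5 probe set lies below 0, and the cross of the brightest Itgb1 probe set lies on the other side of 0 from its point.

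Among the laminin-binding alpha subunits, Itga6, which serves both the Itgb1 and the Itgb4 pair, had a high and similar signal in the groups. Its brightest probe set, 1422445_at, read 11.65, 11.50 and 11.87 in mutant replicates 1 to 3 and 10.90, 11.65 and 11.80 in the wild types (log2). The groups overlapped, and wild-type replicate 1 was the lowest of the 6 arrays. The difference was 0.23 ± 0.28 (SE) with a 95% interval of -0.45 to 0.91, and it was -0.05 without wild-type replicate 1.

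The second Itga6 probe set, 1422444_at, designed from the same deposited sequence, spread far more between arrays. It read 9.61, 7.98 and 9.67 in the mutants and 8.58, 9.43 and 8.54 in the wild types, a difference of 0.24 ± 0.51 (SE). Its gap below the brighter probe set was 3.52 in mutant replicate 2 and 3.27 in wild-type replicate 3, and 2.04 to 2.31 on the other 4 arrays. Those 2 arrays, of different groups, also had the highest 3′ minus 5′ control signals, 1.77 and 1.68 against 0.98 to 1.43. With that control signal as a covariate, the difference of this probe set was 0.37 ± 0.35. Without mutant replicate 2 it was 0.79, so single arrays move its size by more than the brighter probe set's.

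**Figure D3:**
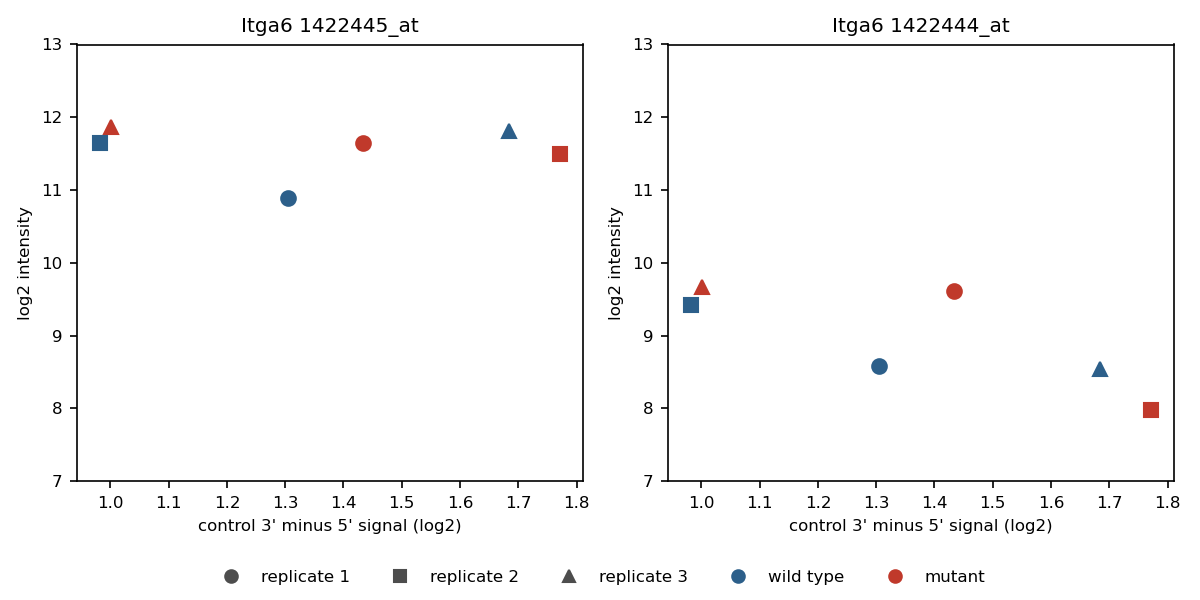
Log2 intensity of the brighter (left) and the second (right) Itga6 probe set plotted against the mean 3′ minus 5′ log2 signal of the Actb and Gapdh controls, 1 point per array. The second probe set is at 7.98 and 8.54 on the 2 arrays with the highest control values, where the brighter one is at 11.50 and 11.80.

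Itga3, the other laminin-binding alpha subunit measured above the median, read low in every mutant on its brightest probe set alone. Probe set 1421997_s_at was at 5.16, 5.39 and 5.33 in the mutants and at 6.02, 5.43 and 6.61 in the wild types. The groups did not overlap, but the gap between mutant replicate 2 and wild-type replicate 2 was smaller than the spread within either group. Groups lay apart in this direction for 2 of the 24 member probe sets, where 4.61% of all probe sets did, and in the other direction for 0, where 3.74% did. The other such probe set was a dim one of Itgb1, 1426920_x_at, with 3.19 to 3.26 in mutants and 3.26 to 3.52 in wild types. The Itga3 difference was -0.72 ± 0.31 (SE), a 1.65-fold lower level, with a 95% interval of -1.48 to 0.03. It was -0.43 without wild-type replicate 3, -1.02 without replicate 2 and still -0.72 without replicate 1. The other Itga3 probe sets, both dim, differed by -0.16 ± 0.57 and -0.10 ± 0.19, and the groups overlapped on both. On the first of them, 1455158_at, the lowest array was wild-type replicate 2, at 3.87. The mean of the 3 probe sets differed by -0.33.

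Itga7, the laminin receptor subunit best known from skeletal muscle, was dim on all arrays, with 3.02 to 3.38 in the mutants and 3.11 to 3.90 in the wild types. Itgb4, the beta subunit of hemidesmosomes, was dim too, at 2.92, 3.03 and 3.12 in the mutants and 3.69, 2.79 and 3.67 in the wild types. Their differences were -0.33 ± 0.25 and -0.36 ± 0.28 (SE), and the groups overlapped for each gene. At levels this close to the floor of the array, sizes can be compressed.

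Itgb1, the common partner of most of these alpha subunits, gave different answers by probe set. The brightest, 1426918_at, was at 7.58, 7.42 and 7.61 in the mutants, a narrow range. The wild types were at 5.89, 8.39 and 7.55, on both sides of the mutants. The difference was 0.26 ± 0.60 (SE) with all arrays and -0.44 ± 0.28 without wild-type replicate 1, so its direction depended on that array. Without wild-type replicate 2 it was 0.81.

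The second Itgb1 probe set, 1452545_a_at, was steadier, at 7.01, 6.51 and 6.76 in the mutants and 6.59, 7.22 and 6.78 in the wild types. Its difference was -0.10 ± 0.24 with a 95% interval of -0.69 to 0.48. On it, wild-type replicate 1 lay within the range of the mutants, while on the brighter probe set the same array lay 1.52 below the lowest mutant. The other 4 Itgb1 probe sets were dim and differed by between -0.36 and 0.10. No difference in the partner shared by the laminin and fibronectin receptors was detectable at this spread.

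Among the fibronectin and RGD receptors, Itgav was the most tightly measured. Its brightest probe set, 1452784_at, read 11.22, 11.36 and 11.54 in the mutants and 11.24, 11.42 and 11.49 in the wild types. The groups interleaved, wild-type replicate 1 included. The difference was -0.01 ± 0.18 (SE), and the 95% interval of -0.45 to 0.43 was the narrowest of the 11 member probe sets above the median level. Both other Itgav probe sets were dim and differed by -0.26 ± 0.24 and 0.24 ± 0.34.

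Itga5, the alpha subunit of the fibronectin receptor, was at 6.19, 6.92 and 5.83 in the mutants and 7.08, 6.17 and 6.89 in the wild types on probe set 1423267_s_at. High and low arrays occurred in both groups, and mutant replicate 2 exceeded wild-type replicates 2 and 3. The difference was -0.40 ± 0.37 (SE). It was -0.70 without mutant replicate 2 and -0.67 without wild-type replicate 2, but -0.16 without mutant replicate 3 and -0.22 without wild-type replicate 1. Its dim probe set differed by -0.27 ± 0.24. Itgb3, known from platelets, osteoclasts and growing vessels, was dim, at 2.81 to 3.25 in the mutants and 2.86 to 3.44 in the wild types, with a difference of -0.01 ± 0.23.

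Itgb5, the beta subunit that joins Itgav into a vitronectin receptor, had the largest difference of any member on a probe set. Probe set 1417533_a_at was at 6.99, 6.88 and 7.35 in the mutants and 8.20, 7.32 and 8.10 in the wild types. Wild-type replicates 1 and 3 lay above all mutants, and replicate 2 lay just below the highest mutant. The difference was -0.80 ± 0.29 (SE), a 1.74-fold lower level, with a 95% interval of -1.50 to -0.10 and a limma adjusted p of 0.999. It was -0.63 without wild-type replicate 1 and -1.07 without wild-type replicate 2. Probe set 1417534_at, from the same deposited sequence, read 7.24, 7.10 and 7.74 against 8.42, 7.50 and 8.18, a difference of -0.67 ± 0.31.

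Both other Itgb5 probe sets are of the x class, which may share probes with other transcripts, and they ordered the mutants differently. Probe set 1456133_x_at read 7.50, 8.12 and 7.85 in the mutants and 8.52, 7.71 and 8.85 in the wild types, a difference of -0.54 ± 0.34 (SE), with -0.29 without wild-type replicate 3 and -0.86 without wild-type replicate 2. Probe set 1456195_x_at read 7.37, 8.20 and 7.57 against 7.98, 7.35 and 8.64, a difference of -0.28 ± 0.39, and 0.05 without wild-type replicate 3. Mutant replicate 2 was the lowest mutant on the first pair of probe sets and the highest on this pair. All 4 probe sets placed wild-type replicate 2 lowest among the wild types. With the 3′ minus 5′ control signal as a covariate the 4 differences were -0.81, -0.67, -0.61 and -0.38, in the order given here.

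**Figure D4:**
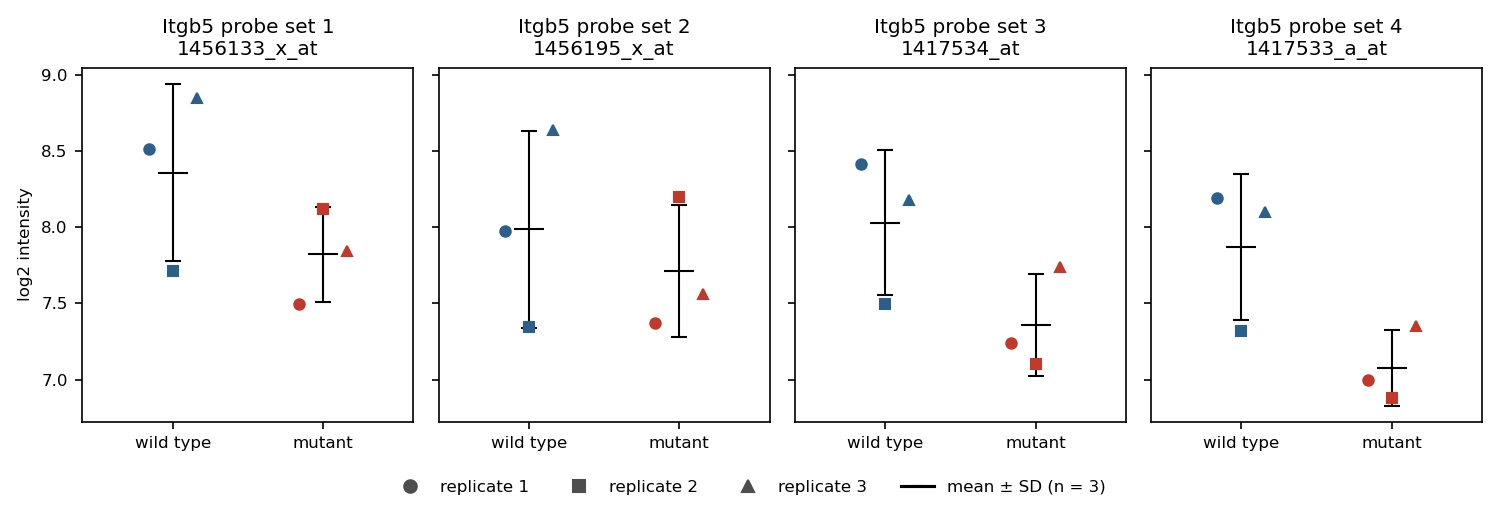
Log2 intensity of the 4 Itgb5 probe sets in 3 wild-type (blue) and 3 mutant (red) arrays, with mean ± SD. Wild-type replicates 1 and 3 lie above every mutant on probe sets 1, 3 and 4, where replicate 2 lies among the mutants, and mutant replicate 2 changes its place between the left and the right pair of panels.

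The collagen-binding subunit Itga2 was measured by 1 dim probe set, at 4.46, 4.06 and 3.96 in the mutants and 4.27, 5.11 and 4.46 in the wild types. The highest array was wild-type replicate 2. The difference was -0.45 ± 0.28 (SE), and -0.20 without that array. This is the member whose promoter window, printed above, held the AP-2 letters.

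The differences of paired subunits, which were not tested against each other, are set side by side here from the brightest probe sets. For the laminin receptor Itga6 with Itgb1 the differences were 0.23 and 0.26, and for Itga3 with Itgb1 they were -0.72 and 0.26. For the fibronectin receptor Itga5 with Itgb1 they were -0.40 and 0.26. For Itgav with Itgb5 they were -0.01 and -0.54. Relative to the wild-type mean, the log2 ratio of Itgav to Itgb5 on their brightest probe sets was 0.70, 0.21 and 0.67 in the mutants and -0.30, 0.69 and -0.38 in the wild types. Wild-type replicate 2 thus sat with the mutants. Every ratio against Itgb1 spread widely within the wild types, through the values of its brightest probe set in replicates 1 and 2.

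Profiles over the 6 arrays were compared with those of 6866 other genes above the median level, after centring each gene on its mean. The profile closest to that of Itgav was Glo1, with a root mean square difference of 0.05 (log2), against 0.12 for a flat profile. The closest to Itga6 was Cnot7 (0.05, flat profile 0.32), to Itga3 Scand1 (0.15, flat profile 0.50), to Itgb1 Trappc2 (0.08, flat profile 0.75) and to Itga5 Ogfod3 (0.11, flat profile 0.47). Among 6867 genes, the dim Itga7 and Itgb4 lay closest to Dmac1 (0.09) and Aamp (0.03). With 6 arrays, of which 1 stands apart, such closeness is a description.

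The ligands were read from lists of related genes. Of 10 measured laminin chains, 9 had lower values in the mutants, against 52.2% of all genes, and 1, Lamc1, a higher one. Their median difference was -0.36. limma called 0 of them. At an unadjusted p under 0.05, 1 (Lama2) was lower, where 1.58% of all probe sets were. The mean log2 level of the list was highest in wild-type replicate 1, the array least like the rest, at 6.59. It was 5.91 and 6.40 in wild-type replicates 2 and 3, and 5.83 to 5.88 in the mutants. Lama1, the alpha chain abundant in lens capsule, read 6.44, 6.75 and 6.43 in mutants and 8.68, 6.48 and 7.69 in wild types, a difference of -1.07 ± 0.53 (SE). Wild-type replicate 2 again read close to the mutants, as it did for Itga3 and Itgb5. Lama2 was at 5.19 ± 0.33 against 6.45 ± 0.82 (SD, n = 3), Lama5 differed by -0.40 ± 0.30 (SE) and Lamb1 by -0.54 ± 0.44. Lamc1, the gamma chain of most laminins, read 9.29, 8.88 and 8.88 in mutants and 6.56, 9.76 and 9.61 in wild types, and its second probe set differed by -0.49 ± 0.54 where the first differed by 0.37 ± 0.84. As for the brightest probe set of Itgb1, its wild-type replicate 1 was low on 1 probe set, and on the other it lay within the range of the mutants.

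Fibronectin and the other ligands of RGD type were higher in the mutants for 8 of 12 genes, against 47.8% of all genes. Their median difference was 0.39. limma called 0 of them. At an unadjusted p under 0.05, 1 (Tnc) was higher, where 1.7% of all probe sets were. The mean log2 level of the list was 5.69 in wild-type replicate 1, the array least like the rest. It was 6.13 and 6.32 in wild-type replicates 2 and 3, and 6.26 to 6.33 in the mutants. Fn1 itself was at 6.33, 7.26 and 6.55 in mutants and 5.52, 5.71 and 6.60 in wild types, a difference of 0.77 ± 0.38 (SE), with overlap through wild-type replicate 3. Vtn, the vitronectin gene, was dim and differed by -0.69 ± 0.34, and Tnc, tenascin C, dim as well, by 0.48 ± 0.19. Beside Fn1, its receptor subunits Itga5 and Itgb1 had differences of -0.40 and 0.26. Of 5 collagen genes, ligands of Itga2 with Itgb1, 3 were higher and 2 lower, with Col1a1 at 1.32 ± 0.60 and Col4a2 at -0.31 ± 0.28.

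Inside the cell, integrin tails bind talin and kindlin, which switch the receptor on, and a complex of ILK, PINCH and parvin that ties it to actin. In this list 24 genes were measured, 13 lower and 11 higher, with a median difference of -0.04. limma called 0, and 0 had an unadjusted p under 0.05. Tln1, talin, differed by -0.33 ± 0.59 (SE), Fermt2, the widespread kindlin, by 0.15 ± 0.25, Ilk by -0.42 ± 0.41, Lims1, which encodes PINCH, by -0.41 ± 0.30, and the dim kinase gene Ptk2b by 0.49 ± 0.35. A second probe set of Tln1 differed by 0.36 ± 0.24, the opposite sign.

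Membrane partners and linkers, 11 genes, had a median difference of -0.07, with 6 lower and 5 higher. limma called 0, and 0 had an unadjusted p under 0.05, which also held for the collagens and for the receptors that follow. Cd151, a tetraspanin that holds the laminin-binding integrins, differed by -0.32 ± 0.73 (SE). Plec, plectin, which joins Itgb4 to keratin filaments, differed by -0.24 ± 0.27, Dst by -0.18 ± 0.19 and the dim Itgb1bp2 by -0.35 ± 0.21. Of 6 other laminin receptors, dystroglycan and syndecans among them, 3 were lower, with Bcam at -0.39 ± 0.29 and Sdc3 at -0.29 ± 0.23, both dim. Of 11 other integrin subunits measured, 10 were dim. In that list the platelet subunit Itga2b differed by -0.22 ± 0.17 and the leukocyte subunit Itgb2 by 0.38 ± 0.20.

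**Figure D5:**
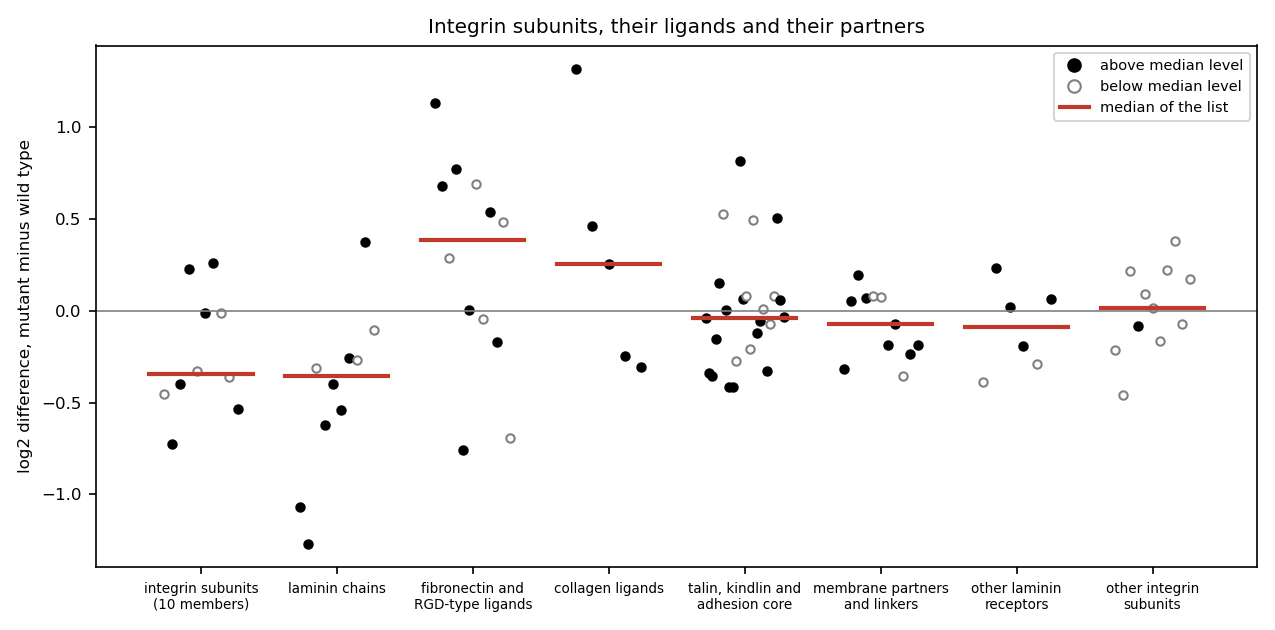
Log2 difference, mutant minus wild type, of the brightest probe set of each gene, for the 10 integrin subunits and for lists of ligands, adhesion proteins, partners and other receptors, filled where above the median level; red lines mark list medians. The medians run from -0.36 for laminin chains to 0.39 for fibronectin and RGD-type ligands, and no gene shown passed the test.

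Markers of cells that could carry integrins into a dissected lens were measured beside them. Leukocyte markers were higher in mutants for 13 of 13 genes, 6 of them dim, where 47.8% of all genes were higher, with a summed intensity of 3637 in mutant replicate 2, 852 and 1081 in mutant replicates 1 and 3, and 759 to 920 across wild types. Their defining gene Ptprc was dim, at 4.44 ± 0.70 against 3.36 ± 0.13 (log2, SD, n = 3), and so was Cd68, at 4.79 ± 0.73 against 3.89 ± 0.20. Without mutant replicate 2 the difference of Itga5 was -0.70, and those of the Itgb5 probe sets 1417533_a_at, 1417534_at, 1456133_x_at and 1456195_x_at were -0.70, -0.54, -0.69 and -0.52. Retinal markers were higher for 8 of 8 genes, with summed intensities of 1249 to 1927 in mutants and 487 to 1021 in wild types. Elavl3 differed by 1.36 ± 0.24 (SE) and Tubb3 by 1.28 ± 0.40. The groups overlapped for Crx, Rlbp1, Rax and the dim Nrl and Rcvrn, which differed by 0.18 to 1.16. Mesenchymal markers were higher for 8 of 10, with sums of 2404 to 3206 and 1177 to 5140, and Pdgfra at -0.61 ± 0.28. Most of the sum of 5140, in wild-type replicate 2, came from Rgs5, at 11.89 (log2) on that array. Pigment cell markers were higher for 4 of 6, with sums of 2806 to 3269 and 3062 to 3644, Dct differing by 1.05 ± 0.39 and Pmel by 0.74 ± 0.24. Most of each of these sums came from Mitf, at a mean of 11.33 (log2) over all arrays. The 2 lower pigment cell markers, Mitf and Rpe65 (dim), named after their values were seen, differed by -0.29 ± 0.17 and -0.43 ± 0.19. The groups lay apart for Dct and Pmel (higher) and for Mitf and Rpe65 (lower). Among the other marker lists they also lay apart for Ptprc, Cd68, Elavl3, Stmn2 and Tubb3 (higher) and for Bfsp1 and Foxe3 (lower). Over all 12393 genes, the groups lay apart with mutants lower for 568 and higher for 523.

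Endothelial markers were lower for 6 of 10, against 52.2% of all genes. Their sums were 1395 to 2017 in mutants and 1686 to 2198 in wild types. Cldn5 differed by -0.58 ± 0.44 (SE) and the dim Pecam1 by -0.49 ± 0.35. Of the 4 higher ones, Esam differed by 0.41 ± 0.31 and Kdr, Emcn and the dim Cdh5 by 0.07 to 0.13. Platelet markers were lower for 4 of 6, 5 of them dim, with sums of 150 to 647 and 103 to 666, and Gp1bb at 0.48 ± 0.40. Surface epithelium markers were higher for 7 of 8, against 47.8% of all genes, 7 of the 8 being dim. Their sums were 145 to 168 and 136 to 181. Krt14 differed by 0.29 ± 0.19 and Krt1, the lower one, by -0.46 ± 0.34. The other Krt14 probe sets, also dim, differed by -0.22 ± 0.19 and -0.15 ± 0.21, the opposite sign. The 5 muscle markers were all dim, 3 lower and 2 higher, with sums of 38.1 to 42.2 and 37.4 to 47.7. Acta1 differed by -0.48 ± 0.25 and Myh3 by -0.14 ± 0.19. The higher ones, Actc1 and Myog, differed by 0.06 ± 0.24 and 0.14 ± 0.20. Lens markers were lower for 8 of 10, against 52.2% of all genes, with sums of 68977 to 76550 and 74050 to 88427. Bfsp1, a beaded filament protein of fibres, differed by -0.65 ± 0.22 and Foxe3 by -0.71 ± 0.29. The crystallin markers differed by between -0.34 and -0.02. The 2 higher lens markers, Pax6 and Mip, differed by 0.47 ± 0.47 and 0.03 ± 0.29. The part of any of these in the integrin values was not tested.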

How the data were processed

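Lens RNA of 3 mutant and 3 wild-type samples was amplified, labelled with biotin and hybridised to 1 array per sample, per the labels. Deposited values are linear intensities, 1 per probe set and array, with medians of 36.5 to 40.0. The submitters' processing notes name RMA alone, which commonly gives log2 values. How it led to a linear scale is not stated in what was used here. Its background and quantile steps can shrink differences of dim probe sets. The number of arrays limits the precision.

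The deposited intensities were put on the log2 scale without renormalising, and 64 controls were left out. Names came from the platform annotation of 2016: 20380 probe sets had 1 symbol, 691 several and 1555 none, and 20351 were matched by Entrez ID to RefSeq (GRCm38.p6), which changed 0 symbols. Counts over genes use the probe set of highest mean. limma 3.58.1 in R 4.3.3 (lmFit, eBayes) compared mutant with wild type, two-sided, with Benjamini-Hochberg adjustment over 22626 probe sets and a threshold of 0.05. Dim means below the median of the mean levels.

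The members, the 16 gene lists (155 of 172 entries measured) and the tests were chosen with earlier results of these data known. Named genes were the members, certain ligand and adhesion genes, and the 2 of lowest p in each list, with the closest profile for 7 subunits. On simulated data over 22626 probe sets the fit recovered 8%, 64%, 76% and 90% of changes of 1, 2, 3 and 4 (log2), with 8 false calls. The simulated noise was independent between probe sets and equal in both groups. In the data the wild-type SD was the larger for 65.1% of probe sets. Wild-type replicate 1 was the highest or lowest array on 56.3%, so these rates need not hold for the data. The results were recomputed with a replicate block, other scaling, a dim filter, a trended prior, array weights, arrays left out, the 3′ to 5′ covariate, 16 added before log2, a threshold of 0.1 and gene means over probe sets. Promoters were searched with Python 3.11.15.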

Additional observations from a re-analysis of the deposited data

How the results depend on the processing

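None of the 24 integrin probe sets was called at a threshold of 0.1 or under the alternative fits. There were 15 such fits for the 11 probe sets above the median level. The 13 dim ones had 14, as the fit without dim probe sets leaves them out. The lowest adjusted p of a member over those fits was 0.203, for Itga3 with arrays weighted by limma. In that weighted fit 7 of the 24 had an unadjusted p under 0.05, against 3397 of all 22626 probe sets. In the unweighted fit 357 of the 22626 were lower and 385 higher at that level, so the weights raised the count across the whole array. Over all probe sets, array weights gave 7 calls where the unweighted fit gave 0, and every other alternative gave 0, leaving out each array included (0 to 0). With those weights, 0.224 for wild-type replicate 1 and 5.65 for wild-type replicate 3, the Itga3 difference was -1.19 and that of the brightest Itgb5 probe set -0.92. The lower values of Itga3 (1421997_s_at), Itga5 (1423267_s_at) and 3 of 4 Itgb5 probe sets kept their sign under all 15 fits. The fourth Itgb5 probe set, 1456195_x_at, kept its sign in 14. The dim Itga3 probe sets 1455158_at and 1460305_at kept theirs in 11 and 13 of 14 fits. Among these fits, the replicate block, the dim filter and the trended prior cannot change a difference. Median centring shifts every difference by the same amount. Signs kept in those fits therefore add little. The signs of Itgav and Itgb1 on their brightest probe sets were kept in 11 and 12 of 15 fits, values within 1 standard error of 0 included. No pairing by replicate number was seen, with correlations of deviations of -0.07, -0.26 and -0.16. With 3 samples per group, and wild-type replicate 1 unlike the rest, these values cannot exclude a pairing. The fit with the replicate block called 0 probe sets and 0 members. Probe sets near the floor of the array limit what can be read for Itga2, Itga7, Itgb3 and Itgb4.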
